A study of Homo sapiens with 108 samples.

Results

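The B cell receptor proximal signalling genes are 9 genes whose products carry the first steps of the signal from the B cell antigen receptor: CD79A, CD79B, SYK, LYN, BTK, BLNK, PLCG2, CD22 and INPP5D. All probe sets that the array's annotation assigns to one of these symbols alone were taken, which gave 25 probe sets of the 41097 with a single gene and 9 genes of 19775. The probe set with the highest average intensity stood for its gene: 1555779_a_at for CD79A, 205297_s_at for CD79B, 226068_at for SYK, 210754_s_at for LYN, 205504_at for BTK, 207655_s_at for BLNK, 204613_at for PLCG2, 38521_at for CD22 and 203332_s_at for INPP5D. All 25 probe sets passed the filter on dim values, a log2 intensity of at least 4 on 3 or more arrays of a line. The study treated 4 human non-Hodgkin lymphoma cell lines with EPZ6438, an inhibitor of the histone methyltransferase EZH2, or with its solvent DMSO. Steady-state RNA was measured on one-colour arrays, 27 for each line. WSU-DLCL2, SU-DHL6 and Karpas422 carry a mutation of EZH2 at the tyrosine named Y641, while Pfeiffer does not carry one at that residue. In each line the groups were DMSO, EPZ6438 at the dose called LCC and EPZ6438 at 10xLCC, each for 2, 4 or 6 days. The LCC was set separately for each line, and the sources used here do not give its concentration. Each of the 36 groups had 3 arrays, named A, B and C. Separate cultures are not stated for them, so every p-value measures the spread between these samples only. Values are log2 of the deposited intensity. A change is a difference of group means on that scale, with its standard error (SE) from a linear model (limma) per line. A gene is called risen or fallen where its p-value, adjusted by the Benjamini-Hochberg method over all genes tested in that line, was under 0.05. RNA came from whole cultures, so fewer cells with a transcript and less transcript per cell cannot be told apart.

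The antigen receptor of a B cell is a membrane immunoglobulin held by the CD79A and CD79B chains, whose tails are phosphorylated by the Src family kinase LYN and then bind the kinase SYK. SYK phosphorylates the adaptor BLNK, which brings the kinase BTK together with the phospholipase PLCG2, and PLCG2 releases the second messengers that drive calcium flux and kinase activation. CD22, a lectin with inhibitory tail motifs, and INPP5D (SHIP1), a lipid phosphatase that removes the phosphoinositide to which BTK binds, restrain the signal. Many B cell lymphomas depend on this pathway, and drugs against SYK, BTK and the surface chains are in use or in trials.

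Promoter sequences of 7 of the 9 genes were matched by symbol in RefSeq (GRCh38.p14), each as 300 bases from 250 before to 50 after the annotated start. SYK had 3 windows in that table, of which the first was used. The 4 shown here belong to SYK, BLNK, INPP5D and CD22, which rose in all 3 Y641 lines, as described further on. BTK rose in all 3 as well, and its window was matched but is not shown. Capitals mark matches, on either strand, to 4 motifs of B cell regulators: the EBF1 core CCCNNGGG, the octamer ATGCAAAT, the PU.1 box GAGGAA and the E-box CAGGTG. SYK lies at chr9:90801350-90801649 on the plus strand, BLNK at chr10:96271520-96271819 on the minus strand, INPP5D at chr2:233060092-233060391 on the plus strand and CD22 at chr19:35328937-35329236 on the plus strand.
SYK: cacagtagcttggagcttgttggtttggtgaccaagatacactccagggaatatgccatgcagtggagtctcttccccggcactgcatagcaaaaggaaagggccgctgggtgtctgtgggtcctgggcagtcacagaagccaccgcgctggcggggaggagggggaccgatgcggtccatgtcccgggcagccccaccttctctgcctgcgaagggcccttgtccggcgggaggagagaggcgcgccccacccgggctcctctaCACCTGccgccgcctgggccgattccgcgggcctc
BLNK: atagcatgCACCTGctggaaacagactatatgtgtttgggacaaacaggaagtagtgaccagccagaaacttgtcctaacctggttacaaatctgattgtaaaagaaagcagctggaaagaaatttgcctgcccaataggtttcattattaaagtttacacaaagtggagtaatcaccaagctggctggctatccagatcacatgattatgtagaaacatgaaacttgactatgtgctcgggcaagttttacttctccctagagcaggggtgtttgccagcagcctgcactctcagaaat
INPP5D: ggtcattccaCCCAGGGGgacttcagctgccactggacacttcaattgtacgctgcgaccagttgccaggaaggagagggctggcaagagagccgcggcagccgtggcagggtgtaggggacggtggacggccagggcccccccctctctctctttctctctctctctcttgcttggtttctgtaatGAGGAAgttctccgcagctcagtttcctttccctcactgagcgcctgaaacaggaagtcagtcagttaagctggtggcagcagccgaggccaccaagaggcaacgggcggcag
CD22: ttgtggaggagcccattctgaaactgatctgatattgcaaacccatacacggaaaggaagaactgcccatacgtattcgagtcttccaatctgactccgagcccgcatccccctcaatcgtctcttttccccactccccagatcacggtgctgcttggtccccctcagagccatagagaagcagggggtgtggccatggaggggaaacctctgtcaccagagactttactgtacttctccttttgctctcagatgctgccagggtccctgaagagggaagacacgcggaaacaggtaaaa

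These 4 windows share little in composition. SYK has 19 CpG dinucleotides, INPP5D 12, CD22 9 and BLNK 1, beside a median of 14 over 27305 promoter windows of this length. These are the first window of each gene symbol, and shares of all windows refer to them. The E-box occurs in SYK, starting at +15 from the start, and in BLNK, at -242, and in 4 of the 7 matched windows in all, beside 20.6% of all windows. INPP5D holds the EBF1 core at -240 and the PU.1 box at -63. The BTK window, not shown, has 27 CpG dinucleotides and holds the EBF1 core at -116 and the PU.1 box at -169 and -27. Those motifs occurred in 2 and 3 of the 7 windows, beside 18.6% and 27.6% of all. No window of the 7 held the octamer, which 1.8% of all windows contain, and CD22 held none of the 4 motifs.

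All arrays came from cells with B cell markers. The 5 measured markers on the list (MS4A1, PAX5, CD74, HLA-DRA and CD37) were bright in every line under DMSO, the dimmest being PAX5 at 11.1 to 11.7. At 10xLCC on day 6, 4 of these 5 rose in each Y641 line and 0 in Pfeiffer, beside the shares of all genes given with the members further on. Of 5 tested T cell markers 3 fell in SU-DHL6 and 2 in Karpas422, and of 5 plasma cell markers 3 fell in SU-DHL6, while in Karpas422 1 rose and 1 fell and in WSU-DLCL2 1 rose. Of the myeloid markers 1 of 5 fell in SU-DHL6. Of the epithelial and stromal ones 2 of 6 rose in WSU-DLCL2, 1 of 5 rose in Karpas422 and 1 of 6 fell in SU-DHL6. The part of these shifts in the results was not tested. Under DMSO 3 of the 6 T cell genes were at 6 or more in every line, CD3E reaching 7.03 and 7.14 in WSU-DLCL2 and SU-DHL6, CD3G 8.85 in Karpas422 and CD8A 13.4 in Pfeiffer, and TRAT1 was the 1 gene below 4. All 5 plasma cell genes were at 6 or more under DMSO in every line, TNFRSF17 reaching 13.4 in Pfeiffer, 11.8 in SU-DHL6 and 10.6 in WSU-DLCL2. The epithelial gene EPCAM was at 11.9 in Pfeiffer and below 4 in the other lines. A pair of arrays stood apart from the others of their groups, Pfeiffer LCC day 6 B and SU-DHL6 DMSO day 2 A. Several, but not all, results that rest on them are given with and without them. The beta-actin ratio, here log2 of the 3′ over the 5′ control probe set, which rises as RNA degrades, was 1.25 ± 0.22 (SD, n = 3) in Karpas422 DMSO on day 6, 2.37 ± 1.22 in LCC and 2.25 ± 0.51 in 10xLCC. In SU-DHL6 on day 6 it was -0.18 ± 0.03, -0.03 ± 0.15 and 0.34 ± 0.13 in the same order. With 3 arrays against 3, an exact permutation test cannot give a two-sided p below 0.1, so single comparisons rest on the model over all genes.

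**Figure D1:**
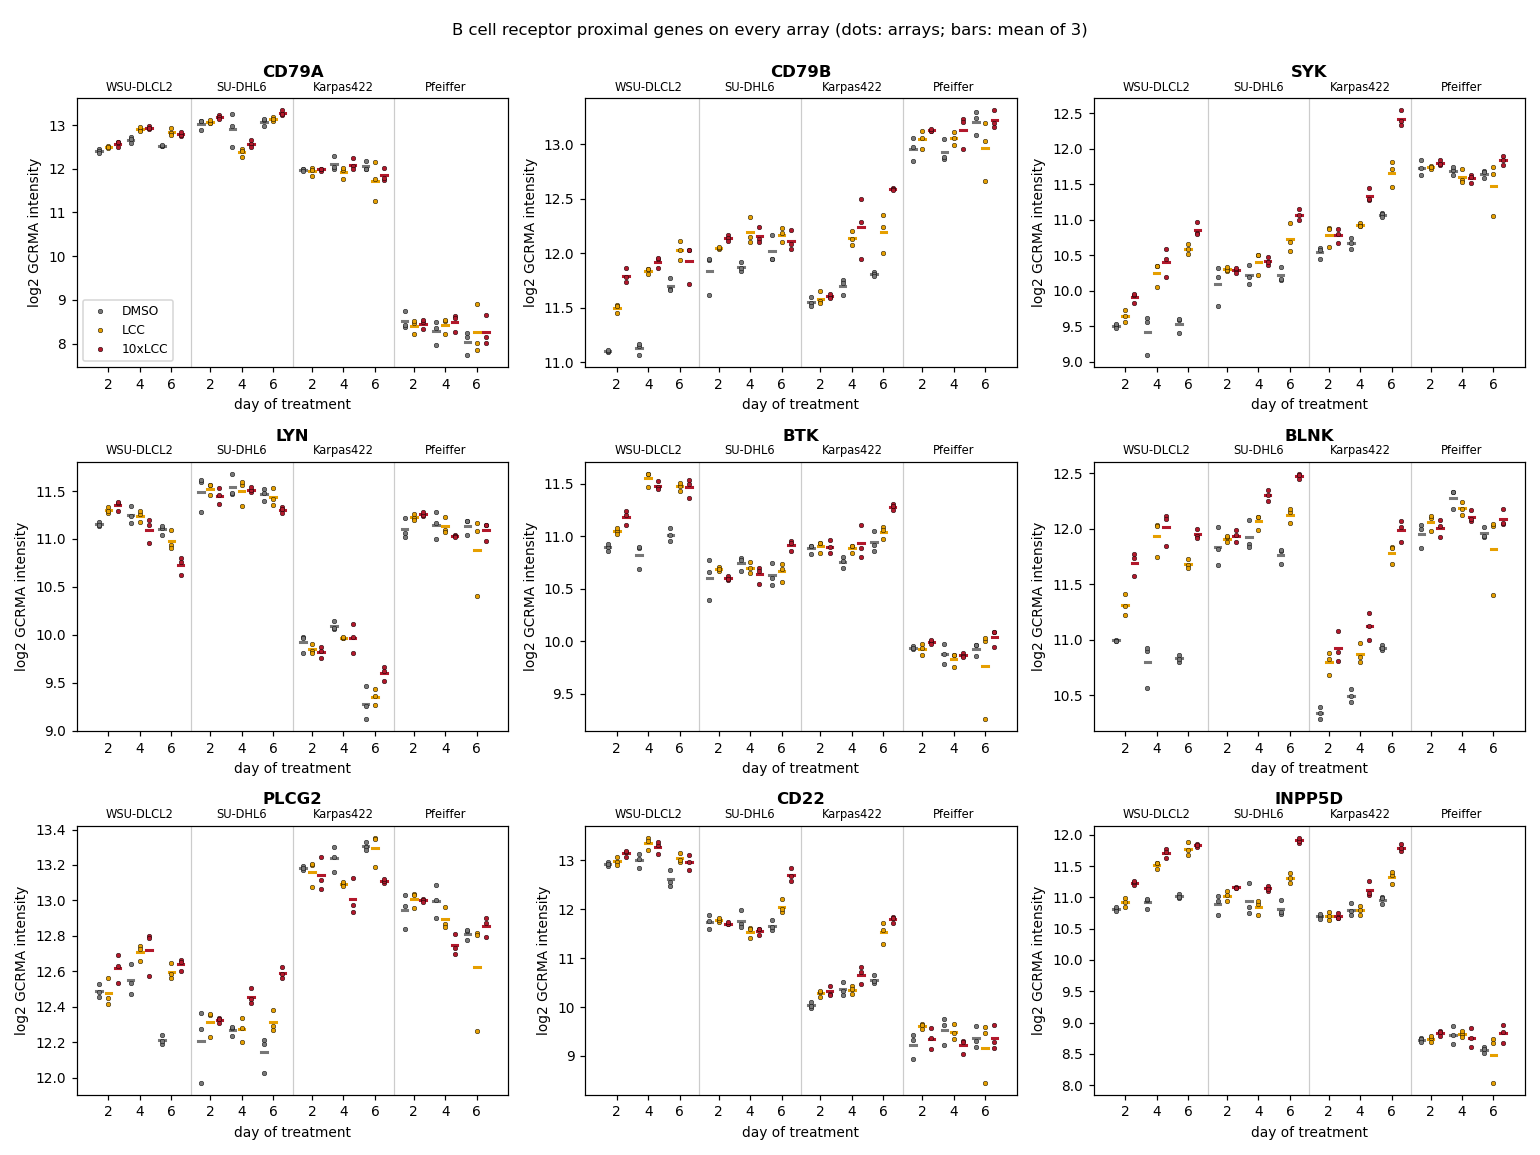
Log2 intensity of the 9 genes (1 panel each, vertical axis) on every array, in blocks by cell line and within these by day, with colours for DMSO, LCC and 10xLCC; points are arrays and short bars the mean of 3. CD79A sits between 7.74 and 8.91 in Pfeiffer and at 11.27 or above in the other lines, while SYK and BLNK separate by dose in the Y641 lines on day 6.

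Before treatment is considered, the 4 lines differed in the transcript level of most components. CD79A averaged 12.53 ± 0.12 (SD, n = 9 DMSO arrays over the 3 days) in WSU-DLCL2, 13.00 ± 0.22 in SU-DHL6, 12.05 ± 0.12 in Karpas422 and 8.28 ± 0.30 in Pfeiffer. The highest DMSO array of Pfeiffer read 8.75 and the lowest of any other line 11.94. The differences from Pfeiffer were 4.25, 4.72 and 3.76 (SE 0.09). The other chain had the opposite order at its extreme: CD79B averaged 13.03 ± 0.16 in Pfeiffer, 11.91 ± 0.14 in SU-DHL6, 11.69 ± 0.12 in Karpas422 and 11.31 ± 0.30 in WSU-DLCL2. SYK was also highest in Pfeiffer at 11.69 ± 0.08, then Karpas422 at 10.76 ± 0.25, SU-DHL6 at 10.18 ± 0.17 and WSU-DLCL2 at 9.49 ± 0.16. Each step of the SYK order passed the test between lines, and Pfeiffer exceeded WSU-DLCL2 by 2.21 ± 0.06.

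LYN, the kinase that starts the cascade, was lowest in Karpas422 at 9.77 ± 0.38, while SU-DHL6 averaged 11.50 ± 0.12, WSU-DLCL2 11.17 ± 0.08 and Pfeiffer 11.13 ± 0.10. BTK lay between 10.66 and 10.91 in the Y641 lines and at 9.92 ± 0.06 in Pfeiffer. BLNK was highest in Pfeiffer at 12.06 ± 0.18, followed by SU-DHL6 at 11.84 ± 0.13, WSU-DLCL2 at 10.87 ± 0.14 and Karpas422 at 10.59 ± 0.27. The order of the last pair was reversed on day 6, where DMSO arrays averaged 10.93 in Karpas422 and 10.83 in WSU-DLCL2. PLCG2 ranged from 12.20 ± 0.13 in SU-DHL6 to 13.24 ± 0.07 in Karpas422, with Pfeiffer at 12.92 ± 0.11 and WSU-DLCL2 at 12.42 ± 0.16. Both inhibitors were lowest in Pfeiffer. CD22 averaged 12.85 ± 0.21 in WSU-DLCL2, 11.73 ± 0.14 in SU-DHL6, 10.32 ± 0.25 in Karpas422 and 9.37 ± 0.26 in Pfeiffer. INPP5D was between 10.82 and 10.92 in the Y641 lines and at 8.69 ± 0.13 in Pfeiffer, a difference of 2.13 to 2.22 (SE 0.05).

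In 1 model over the arrays of all 4 lines, most members differed in every pair of lines under DMSO, where a large share of all genes tested differed as well. WSU-DLCL2 and SU-DHL6 differed in 8 of 9 members, beside 44.1% of all genes, and INPP5D was the exception (0.03, adjusted p = 0.67). WSU-DLCL2 and Karpas422 differed in 7, beside 48.7%, with BTK (0.05, adjusted p = 0.48) and INPP5D (0.10, adjusted p = 0.15) as the exceptions. WSU-DLCL2 and Pfeiffer differed in 8, beside 50.2%, all but LYN (0.04, adjusted p = 0.62). SU-DHL6 and Karpas422 differed in 8, beside 55.8%, all but INPP5D (0.06, adjusted p = 0.33). All 9 members differed between SU-DHL6 and Pfeiffer, beside 52.4%, and all 9 between Karpas422 and Pfeiffer, beside 56.5%. A line is 1 culture lineage, so these differences describe these lines and not the presence of a Y641 mutation.

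After 6 days at 10xLCC the transcripts of most of the proximal components were more abundant in each Y641 line, and no member was called in Pfeiffer. In WSU-DLCL2 8 of the 9 genes rose and 1 fell, where 17% of all genes tested rose and 19.2% fell. In SU-DHL6 6 rose and 0 fell, against 19.8% and 26.7% of all genes. In Karpas422 7 rose and 1 fell, against 18.4% and 19.2%. In Pfeiffer 0 rose and 0 fell, and few genes of any kind did (0.164% rose and 0.0581% fell), so the absence of calls there is near the background of that line. In the limma fit of all Pfeiffer arrays 0 members had an unadjusted p under 0.05 on day 6 as well. That fit shares its spread with LCC day 6 B, an array that stood apart. Without it INPP5D gave 0.27 ± 0.08 (SE, adjusted p = 0.099) and SYK 0.19 ± 0.07 (adjusted p = 0.18). Still 0 members were called, beside 2.38% of all genes. The median change of the 9 genes was 0.43, 0.45, 0.78 and 0.11 for WSU-DLCL2, for SU-DHL6, for Karpas422 and for Pfeiffer, while the median over all genes was 0.02, -0.11, -0.03 and 0.02. SYK, BTK, BLNK, CD22 and INPP5D rose in all 3 Y641 lines. With the beta-actin ratio as a covariate, 2 members rose in SU-DHL6 in place of 6, BLNK and INPP5D, while 5.95% of all genes rose and 2.92% fell in that fit. In SU-DHL6 the ratio averaged 0.34 in the 10xLCC day 6 group and 0.005 or less in every other group. The covariate therefore overlaps with the treatment compared, and treatment and RNA quality cannot be told apart by the calls lost there. With the same covariate Karpas422 kept 7 risen and 1 fallen, beside 18.5% and 17.8%. There too the ratio overlapped with treatment, at 1.02 to 1.46 under DMSO and 1.71 to 2.72 at 10xLCC on day 6. The calls kept in Karpas422 therefore do not tell treatment and RNA quality apart either. Arrays scaled on bright genes instead had higher medians over all genes (0.17, 0.05 and 0.20 in the Y641 lines), and the share of called genes that had risen went from 47% to 67.5% in WSU-DLCL2, from 42.5% to 64.2% in SU-DHL6 and from 48.8% to 72.9% in Karpas422.

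**Figure D2:**
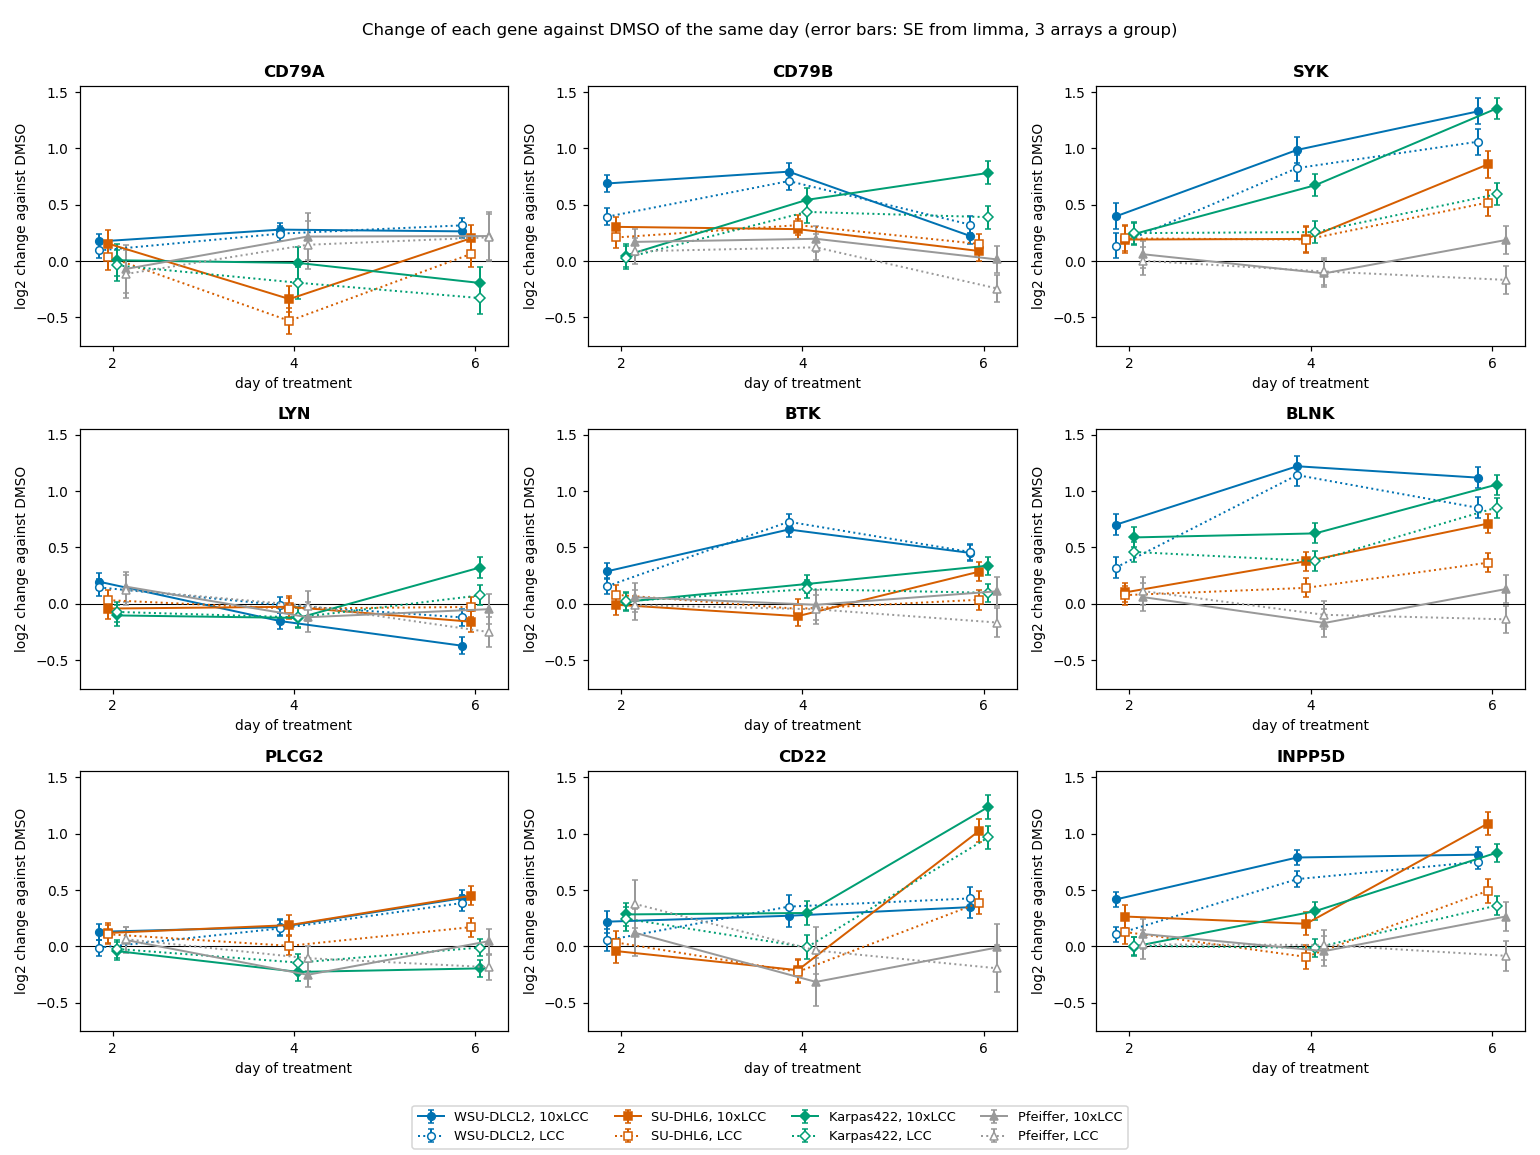
Log2 change against DMSO of the same day (vertical axis) by day of treatment (horizontal axis) for the 9 genes, with 1 colour and marker per line, solid lines for 10xLCC, dotted lines for LCC and SE bars from the model of each line. SYK, BLNK and INPP5D are at 0.71 or above at 10xLCC on day 6 in the Y641 lines, and Pfeiffer stays within 0.27 of 0 for all 9 genes on that day.

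The transcripts of the receptor chains did not move alike in the 3 Y641 lines. CD79A in WSU-DLCL2 on day 6 read 12.52, 12.53 and 12.53 under DMSO and 12.75, 12.78 and 12.84 at 10xLCC. Every treated array was above every DMSO array, and CD79A rose by 0.26 ± 0.06 (SE), 1.20-fold, with adjusted p = 0.0014. In SU-DHL6 the DMSO arrays read 12.99, 13.11 and 13.13 and the 10xLCC arrays 13.24, 13.34 and 13.26. These groups did not overlap, but the change of 0.20 ± 0.12 missed the threshold (adjusted p = 0.16). Karpas422 gave -0.19 ± 0.14 (adjusted p = 0.32) and Pfeiffer 0.22 ± 0.21 (adjusted p = 1), the latter at the low level of that line. The second CD79A probe set, 205049_s_at, rose in WSU-DLCL2 (0.32) and also in SU-DHL6 (0.39, adjusted p = 0.012 in the fit over probe sets), and gave -0.06 and 0.08 in Karpas422 and Pfeiffer.

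CD79B carried the larger change of the pair in Karpas422. Its arrays read 11.83, 11.81 and 11.79 under DMSO on day 6, 12.35, 12.24 and 12.01 at LCC and 12.60, 12.59 and 12.58 at 10xLCC. The 3 doses did not overlap and rose in order, with 10xLCC 0.78 ± 0.10 above DMSO (1.72-fold, adjusted p = 5e-07). WSU-DLCL2 arrays read 11.77, 11.67 and 11.66 under DMSO and 12.03, 11.72 and 12.03 at 10xLCC, where array B lay inside the DMSO range. That change of 0.22 ± 0.08 passed (adjusted p = 0.022), but not when the 2 groups were fitted alone (adjusted p = 0.18). In SU-DHL6 the change was 0.09 ± 0.09 (95% interval -0.10 to 0.28, adjusted p = 0.43) and in Pfeiffer 0.02. CD79B has 2 other probe sets, 1555746_at and 1555748_x_at, whose mean levels of 6.30 and 6.10 lie near the median of an array. They fell in SU-DHL6 (by 0.44 and 0.38 on the log2 scale) and were not called in Karpas422 (-0.07 and 0.07), so the CD79B rise there rests on the 1 bright probe set.

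SYK, the kinase that binds the phosphorylated CD79 tails, rose at both doses in every Y641 line. In WSU-DLCL2 on day 6 it read 9.59, 9.60 and 9.40 under DMSO, 10.66, 10.59 and 10.52 at LCC and 10.98, 10.81 and 10.80 at 10xLCC. Those 3 sets of arrays did not overlap, and the change at 10xLCC was 1.33 ± 0.11, 2.51-fold, with adjusted p = 6.7e-10. SU-DHL6 arrays read 10.16, 10.16 and 10.33 under DMSO and 11.15, 11.07 and 11.00 at 10xLCC, with 10.56, 10.69 and 10.95 at LCC between them. There SYK rose by 0.86 ± 0.12 (1.81-fold, adjusted p = 8e-07). With the beta-actin ratio in the model it was 0.59 and no longer passed (adjusted p = 0.19).

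Karpas422 began higher and ended higher. Its SYK arrays read 11.09, 11.08 and 11.03 under DMSO, 11.81, 11.72 and 11.46 at LCC and 12.54, 12.34 and 12.39 at 10xLCC, again without overlap. The rise was 1.35 ± 0.10 (2.56-fold, adjusted p = 9.6e-12). Pfeiffer read 11.68, 11.59 and 11.67 under DMSO and 11.77, 11.85 and 11.90 at 10xLCC. Although these arrays did not overlap, the change of 0.19 ± 0.12 (95% interval -0.06 to 0.44) was not called (adjusted p = 1). Of the 4 SYK probe sets, all 4 rose in WSU-DLCL2 (0.86 to 1.33) and in Karpas422 (0.42 to 1.35). In SU-DHL6 226068_at and 244023_at rose (0.86 and 1.28), while 207540_s_at and 209269_s_at gave 0.18 and 0.25 and were not called, so the size of the SYK change in SU-DHL6 depends on the probe set. The low reading of 207540_s_at there is visible on the arrays, at 10.17, 10.18 and 10.31 under DMSO and 10.40, 10.40 and 10.40 at 10xLCC.

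LYN went in different directions in the lines. In WSU-DLCL2 on day 6 its arrays read 11.12, 11.14 and 11.04 under DMSO, 11.09, 10.94 and 10.91 at LCC and 10.80, 10.76 and 10.63 at 10xLCC. All 10xLCC arrays were below all DMSO arrays, and LYN fell by 0.37 on the log2 scale (SE 0.07, 0.77-fold, adjusted p = 0.00021). In Karpas422 it read 9.46, 9.13 and 9.26 under DMSO and 9.67, 9.52 and 9.62 at 10xLCC, a rise of 0.32 ± 0.09 (1.25-fold, adjusted p = 0.005) that did not pass without DMSO array B (0.24, adjusted p = 0.053). SU-DHL6 gave -0.16 ± 0.09 (adjusted p = 0.16) and Pfeiffer -0.05. The 3 LYN probe sets differed in SU-DHL6, where 202626_s_at rose by 0.33 while 210754_s_at and 202625_at gave -0.16 and 0.01. In WSU-DLCL2 2 of the 3 fell and in Karpas422 2 of the 3 rose.

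BTK, the kinase recruited to BLNK and the target of ibrutinib, rose in all 3 Y641 lines. WSU-DLCL2 arrays read 10.95, 11.08 and 11.02 under DMSO on day 6 and 11.49, 11.37 and 11.53 at 10xLCC, a rise of 0.45 ± 0.07 (1.37-fold, adjusted p = 7.9e-06). In SU-DHL6 they read 10.60, 10.54 and 10.74 and then 10.95, 10.86 and 10.93, a rise of 0.29 ± 0.09 (1.22-fold, adjusted p = 0.009). Karpas422 went from 10.86, 10.92 and 11.05 to 11.30, 11.28 and 11.25, a rise of 0.34 ± 0.08 (1.26-fold, adjusted p = 0.0012). Treated and DMSO arrays did not overlap in any of the 3. The SU-DHL6 call was lost without DMSO array B (0.24, adjusted p = 0.054) and with the beta-actin ratio in the model (0.22, adjusted p = 0.61). Pfeiffer gave 0.11 ± 0.13. BTK has a single probe set.

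The adaptor BLNK, also with a single probe set, rose in every Y641 line. WSU-DLCL2 arrays read 10.80, 10.86 and 10.83 under DMSO on day 6, 11.67, 11.65 and 11.72 at LCC and 11.93, 12.00 and 11.92 at 10xLCC. The rise at 10xLCC was 1.12 ± 0.09 (2.17-fold, adjusted p = 4.3e-10). SU-DHL6 arrays read 11.68, 11.80 and 11.81, then 12.05, 12.15 and 12.18, then 12.49, 12.48 and 12.45, a rise of 0.71 ± 0.08 (1.64-fold, adjusted p = 1.1e-07). This rise kept its call with the beta-actin ratio in the model (0.68, adjusted p = 0.024). In Karpas422 the arrays read 10.91, 10.95 and 10.93, then 11.68, 11.83 and 11.83, then 11.88, 12.07 and 12.01, a rise of 1.06 ± 0.09 (2.08-fold, adjusted p = 2.5e-10). No dose overlapped another in any of the 3 lines. Pfeiffer, which began highest, read 11.93, 12.01 and 11.94 under DMSO and 12.04, 12.05 and 12.17 at 10xLCC, a change of 0.13 ± 0.12 (95% interval -0.12 to 0.38).

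PLCG2, the phospholipase, split the Y641 lines. In WSU-DLCL2 it read 12.19, 12.21 and 12.24 under DMSO on day 6 and 12.66, 12.65 and 12.60 at 10xLCC, a rise of 0.43 ± 0.07 (1.34-fold, adjusted p = 2.2e-05). SU-DHL6 went from 12.03, 12.19 and 12.21 to 12.59, 12.56 and 12.62, a rise of 0.45 ± 0.09 (1.37-fold, adjusted p = 9.7e-05), which was 0.41 (adjusted p = 0.24) with the beta-actin ratio in the model. Karpas422 had the highest level of the 4 lines and went the other way, from 13.33, 13.30 and 13.29 to 13.10, 13.11 and 13.12. Its arrays did not overlap, and PLCG2 fell by 0.19 on the log2 scale (SE 0.08, 0.87-fold, adjusted p = 0.047). That call ended without any single array of either group (adjusted p 0.075 to 0.12), and the value was 0.03 when arrays were centred on bright genes.

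The other PLCG2 probe sets differ in what they show. In WSU-DLCL2 230917_at and 1563263_at rose by 0.77 and 0.96 on day 6. In SU-DHL6 230917_at rose by 1.02 and 1563263_at gave -0.20. Karpas422 had -0.22, -0.22 and -0.67 in the remaining 3 probe sets, of which 1557993_at (-0.67, adjusted p = 0.029 in the fit over probe sets) was called. On day 4 in WSU-DLCL2 the brightest probe set gave 0.17 and was not called, while the other 3 rose by 1.14, 0.65 and 0.99. The arrays of 230917_at there read 9.14, 9.66 and 9.74 under DMSO and 10.27, 10.73 and 10.97 at 10xLCC, without overlap. The change of PLCG2 in WSU-DLCL2 on day 4 therefore depends on the probe set chosen.

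The transcripts of both inhibitors rose in all 3 Y641 lines on day 6. CD22 in SU-DHL6 read 11.57, 11.65 and 11.78 under DMSO on day 6, 11.94, 12.01 and 12.21 at LCC and 12.83, 12.57 and 12.67 at 10xLCC. No doses overlapped, and the rise was 1.03 ± 0.10 (2.04-fold, adjusted p = 5.1e-09), or 0.67 (adjusted p = 0.056) with the beta-actin ratio in the model. In Karpas422 CD22 read 10.49, 10.66 and 10.52, then 11.29, 11.58 and 11.72, then 11.73, 11.84 and 11.83. That rise was 1.24 ± 0.11 (2.36-fold, adjusted p = 3.3e-10). WSU-DLCL2, which began highest, read 12.48, 12.80 and 12.56 under DMSO and 12.97, 12.80 and 13.12 at 10xLCC. Both groups held an array at 12.80, and the rise of 0.35 ± 0.10 (1.27-fold, adjusted p = 0.0062) gave adjusted p = 0.062 when the 2 groups were fitted alone. Pfeiffer gave -0.01 ± 0.21 (95% interval -0.44 to 0.43). All 4 CD22 probe sets rose in WSU-DLCL2 (0.35 to 0.55) and SU-DHL6 (0.67 to 1.19), and 3 of 4 in Karpas422 (0.79 to 1.24), where 220674_at gave 0.12.

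INPP5D had close to the same DMSO level in the Y641 lines and rose in each. WSU-DLCL2 arrays read 10.99, 11.06 and 11.01 under DMSO on day 6, 11.88, 11.75 and 11.67 at LCC and 11.86, 11.81 and 11.83 at 10xLCC. Both treated groups were above DMSO and overlapped each other, with 10xLCC 0.81 ± 0.07 above DMSO (1.76-fold, adjusted p = 3.7e-10). SU-DHL6 arrays read 10.74, 10.77 and 10.96, then 11.24, 11.31 and 11.39, then 11.88, 11.90 and 11.95, with a rise of 1.09 ± 0.10 (2.13-fold, adjusted p = 2.8e-09) that was 1.01 (adjusted p = 0.0071) with the beta-actin ratio. Karpas422 arrays read 11.00, 10.99 and 10.90, then 11.35, 11.41 and 11.21, then 11.85, 11.74 and 11.79, a rise of 0.83 ± 0.08 (1.78-fold, adjusted p = 4.2e-09). In both of these lines the 3 doses stood in order without overlap. Pfeiffer read 8.51, 8.60 and 8.58 and then 8.67, 8.96 and 8.86, which did not overlap, with a change of 0.27 ± 0.13 (95% interval -0.01 to 0.54, adjusted p = 1). All 3 INPP5D probe sets rose in all 3 Y641 lines, by 0.50 to 1.63. The widest was 1568943_at in SU-DHL6, with 6.27, 6.29 and 6.27 under DMSO and 8.14, 7.48 and 8.11 at 10xLCC.

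**Figure D3:**
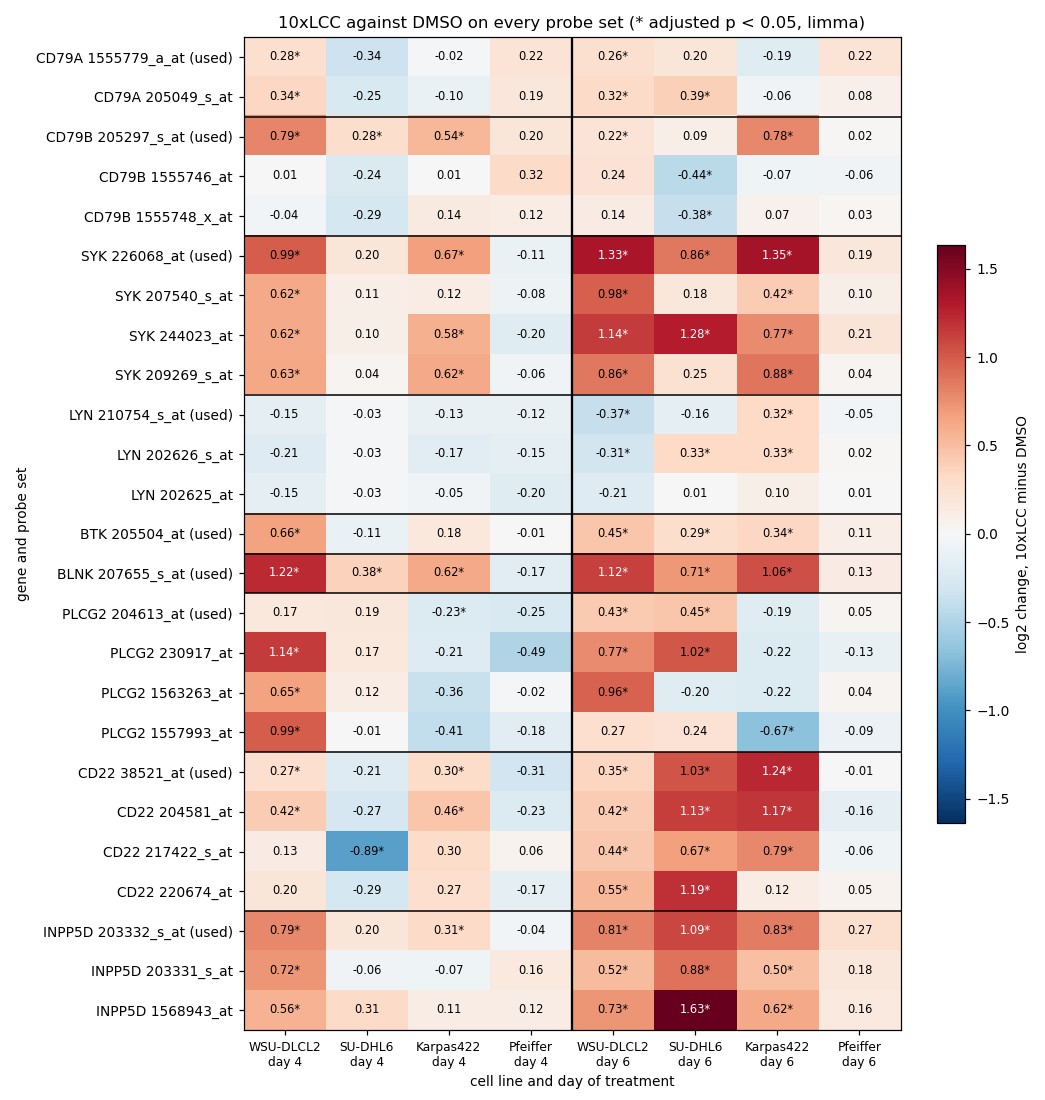
Log2 change at 10xLCC against DMSO of each of the 25 probe sets (vertical axis, grouped by gene) in the 4 lines on days 4 and 6 (horizontal axis); colour is the change and a star marks adjusted p under 0.05 in the fit over probe sets. All probe sets of CD22 except 220674_at in Karpas422 and all of INPP5D carry a star on day 6 in the Y641 lines, while those of CD79B, LYN and PLCG2 differ among themselves.

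With 4 days at 10xLCC the 3 Y641 lines were at different stages. In WSU-DLCL2 7 members rose and 0 fell, where 18.9% of all genes rose and 14.7% fell. BLNK read 10.57, 10.90 and 10.92 under DMSO and 11.84, 12.12 and 12.08 at 10xLCC, a rise of 1.22 ± 0.09 (2.33-fold, adjusted p = 9.9e-11) beside 1.12 on day 6. CD79B read 11.15, 11.07 and 11.17 and then 11.87, 11.95 and 11.96, a rise of 0.79 ± 0.08 (adjusted p = 4.8e-09). SYK (0.99), BTK (0.66), INPP5D (0.79), CD79A (0.28) and CD22 (0.27) rose as well, while PLCG2 (0.17) and LYN (-0.15) were not called. The CD22 call (adjusted p = 0.035) ended without several single arrays.

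Karpas422 on day 4 had 5 members risen and 1 fallen, where 10.8% of all genes rose and 15.2% fell. SYK read 10.67, 10.75 and 10.58 under DMSO and 11.28, 11.45 and 11.29 at 10xLCC, a rise of 0.67 ± 0.10 (adjusted p = 4.8e-06). BLNK rose by 0.62, CD79B by 0.54, INPP5D by 0.31 and CD22 by 0.30, the last with array C of 10xLCC inside the DMSO range. PLCG2 fell by 0.23 on the log2 scale (adjusted p = 0.029) from 13.30, 13.25 and 13.16 to 12.93, 13.13 and 12.97. The beta-actin ratio of Karpas422 on day 4 was -0.01 under DMSO and 0.03 at 10xLCC, so these changes were measured without the high ratios of day 6. The calls of PLCG2 and CD22 ended without some single arrays, and that of INPP5D with the 2 groups alone (adjusted p = 0.1).

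SU-DHL6 on day 4 had 2 members risen and 1 fallen, where 10.3% of all genes rose and 9.64% fell. BLNK rose from 11.86, 12.07 and 11.84 to 12.30, 12.35 and 12.25, by 0.38 ± 0.08 (adjusted p = 0.0017), without overlap. CD79B rose from 11.84, 11.87 and 11.92 to 12.24, 12.13 and 12.11, by 0.28 ± 0.09 (adjusted p = 0.026). CD79A read 12.98, 12.49 and 13.25 under DMSO and 12.65, 12.56 and 12.50 at 10xLCC. The DMSO arrays spanned the treated ones, and the fall of 0.34 (adjusted p = 0.043) shrank to -0.16 without DMSO array C. SYK (0.20), BTK (-0.11), CD22 (-0.21) and INPP5D (0.20) were not called on day 4, although all 4 had risen by day 6. Without the day 2 DMSO array A, PLCG2 was called as well (0.19, adjusted p = 0.033), which made 3 risen and 1 fallen, beside 26.2% of all genes called either way. Scaling on bright genes raised the risen share of calls on day 4 from 51.7% to 68.9% in SU-DHL6, from 41.6% to 69.4% in Karpas422 and from 56.3% to 64.4% in WSU-DLCL2.

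Pfeiffer had 0 members risen and 0 fallen on day 4, beside 0.0528% and 0.0158% of all genes. PLCG2 came closest, from 13.00, 13.09 and 12.90 under DMSO to 12.73, 12.81 and 12.70 at 10xLCC. Those arrays did not overlap, and the change of -0.25 ± 0.11 gave adjusted p = 0.59 with all arrays and 0.033 without Pfeiffer LCC day 6 B, an array of another group in the same model. Of the 9 members it was also the single one with an unadjusted p under 0.05 that day. Leaving that array out raised the share of all genes called to 3.51% on day 4 and 2.38% on day 6, with no other member called. BLNK gave -0.17 (adjusted p = 0.8), SYK -0.11, CD22 -0.31 and CD79B 0.20.

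On day 2 the first member changes at 10xLCC were mainly in WSU-DLCL2, where 6 rose and 0 fell, beside 25.4% of all genes called either way. BLNK read 11.00, 10.99 and 10.99 under DMSO and 11.58, 11.77 and 11.74 at 10xLCC, a rise of 0.70 (adjusted p = 3.8e-06). CD79B went from 11.09, 11.11 and 11.12 to 11.86, 11.79 and 11.73, a rise of 0.69 (adjusted p = 2e-07). INPP5D (0.42), SYK (0.40), BTK (0.29) and CD79A (0.17) also rose. In Karpas422 only BLNK was called, beside 6.6% of all genes, rising by 0.59 (adjusted p = 5.2e-05) from 10.33, 10.29 and 10.39 to 10.81, 10.89 and 11.08. In SU-DHL6 CD79B rose by 0.30 (adjusted p = 0.033), beside 8.64% of all genes, but DMSO array A read 11.62 against 11.94 and 11.95. Without that array, one of the pair that stood apart, the change was 0.20 (adjusted p = 0.26) and 0 members were called, beside 5.16%. Pfeiffer had 0 members called beside 0.00528% of all genes.

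At the lower dose fewer members were called in SU-DHL6 and Karpas422. At LCC on day 6, 8 members rose in WSU-DLCL2 beside 27.8% of all genes called either way. SYK rose by 1.06 ± 0.11 (adjusted p = 6.5e-08), BLNK by 0.85, INPP5D by 0.75, BTK by 0.46, CD22 by 0.43, PLCG2 by 0.38 and both CD79 chains by 0.32, while LYN gave -0.12 (adjusted p = 0.27). In Karpas422 5 rose beside 26.3%, namely CD22 (0.97), BLNK (0.85), SYK (0.59), CD79B (0.39) and INPP5D (0.36). In SU-DHL6 4 rose beside 17.9%, namely SYK (0.52), INPP5D (0.49), CD22 (0.39) and BLNK (0.36). Pfeiffer had 0 called beside 0%, a group in which array B read low (SYK 11.06 beside 11.64 and 11.75, CD79B 12.66 beside 13.19 and 13.03).

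Earlier at LCC, WSU-DLCL2 already had 7 members risen on day 4 beside 28.9% of all genes. BLNK rose by 1.14 ± 0.09 (adjusted p = 6.3e-10), SYK by 0.83, BTK by 0.73, CD79B by 0.71 and INPP5D by 0.60. Karpas422 had 2 risen beside 8.88%, CD79B (0.44) and BLNK (0.38). SU-DHL6 had CD79B risen (0.32) and CD79A fallen (by 0.53, adjusted p = 0.0036) beside 8.41%, the CD79A arrays at LCC (12.46, 12.40 and 12.27) lying below all 3 DMSO arrays. Pfeiffer had 0 called beside 0%. On day 2 CD79B (0.39) and BLNK (0.32) rose in WSU-DLCL2 beside 7.04%, BLNK (0.46) rose in Karpas422 beside 2.68%, and 0 members were called in SU-DHL6 beside 4.71% and in Pfeiffer beside 0%.

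The higher dose was set directly against the lower one to show where the members differed between doses. In WSU-DLCL2 on day 6 only LYN differed (-0.25, adjusted p = 0.025), beside 13% of all genes. In SU-DHL6 6 members were higher at 10xLCC than at LCC beside 27.3% of all genes: CD22 by 0.64, INPP5D by 0.60, BLNK by 0.35, SYK by 0.34, PLCG2 by 0.28 and BTK by 0.25. In Karpas422 4 were higher beside 18.2%: SYK by 0.76, INPP5D by 0.47, CD79B by 0.39 and BTK by 0.24. Pfeiffer had 0 beside 1.38%, although 5 members (SYK, INPP5D, BTK, BLNK and CD79B) had an unadjusted p under 0.05 with LCC array B in the fit. Without that array 0 members were called there, beside 0.681%. On day 4 the differences were SYK (0.42) and INPP5D (0.33) in Karpas422 beside 10.3%, with 0 members in WSU-DLCL2 beside 4.6%, 0 in SU-DHL6 beside 3.2% and 0 in Pfeiffer beside 0.00528%. BLNK in SU-DHL6 was called on day 4 (0.24, adjusted p = 0.046) when the day 2 DMSO array A was left out, beside 7.58%.

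Some members also moved with time under DMSO alone. In Karpas422 SYK (0.53), BLNK (0.59), CD22 (0.53) and INPP5D (0.26) were higher on day 6 than on day 2, and LYN fell by 0.64 on the log2 scale (adjusted p = 3.4e-06), beside 31.4% of all genes called. LYN read 9.98, 9.97 and 9.81 on day 2, 10.06, 10.14 and 10.07 on day 4 and 9.46, 9.13 and 9.26 on day 6. The beta-actin ratio of the day 6 DMSO arrays was high in this line, and its part in the change over time was not tested. In WSU-DLCL2 CD79B rose by 0.60 from day 2 to day 6 while PLCG2 fell by 0.28 and CD22 by 0.31, beside 12.1%. SU-DHL6 had 0 members called beside 3.55% and Pfeiffer 0 beside 0.00528%. With the array that stood apart left out of each fit, SU-DHL6 had 0 beside 2.98% and Pfeiffer 0 beside 3.69%.

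The 10xLCC change on day 6 was also set against that on day 2, as a difference of the 2 changes. In Karpas422 SYK gained 1.11 (adjusted p = 8.5e-07), CD22 0.95, INPP5D 0.83, CD79B 0.73, BLNK 0.47, LYN 0.42 and BTK 0.32, which is 7 members beside 19.9% of all genes called. In SU-DHL6 CD22 gained 1.07 (adjusted p = 2.6e-06), INPP5D 0.82, SYK 0.67, BLNK 0.61 and PLCG2 0.33, which is 5 beside 31.4%. Without the day 2 DMSO array A of that line, BTK was called too (0.40, adjusted p = 0.0039), beside 33.1%. In WSU-DLCL2 SYK gained 0.93, BLNK 0.42, INPP5D 0.40 and PLCG2 0.30, while CD79B lost 0.47 (its change went from 0.69 to 0.22, a difference of -0.47) and LYN gave -0.57, which is 4 members up and 2 down beside 13.9%. Such a difference also holds movement of the DMSO arrays. From day 2 to day 6 CD79B in WSU-DLCL2 went from 11.10 to 11.70 under DMSO and from 11.79 to 11.93 at 10xLCC. LYN in Karpas422 went from 9.92 to 9.28 under DMSO and from 9.82 to 9.60 at 10xLCC. Pfeiffer had 0 members called beside 0%.

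Differences between lines in the 10xLCC change were tested in the same model over all 4 lines. On day 6 Pfeiffer changed less than the mean of the 3 Y641 lines for SYK (-0.99, adjusted p = 9.9e-10), CD22 (-0.88), BLNK (-0.83), INPP5D (-0.65) and CD79B (-0.35), beside 26.6% of all genes called. BTK gave -0.25 and missed the threshold (adjusted p = 0.067). On day 4 the difference was called for BLNK (-0.91), SYK (-0.73), INPP5D (-0.48), CD79B (-0.34) and PLCG2 (-0.30), beside 15.3%. The CD79B difference depended on its bright probe set, being 0.077 on day 4 when the probe sets of a gene were averaged. Pfeiffer is 1 line, so these values set Pfeiffer against the other 3 lines and cannot be told apart from other differences between them, among them its dose, its higher DMSO level of SYK and BLNK and its lower level of CD22 and INPP5D.

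Within the Y641 lines, Karpas422 differed from the mean of the other pair on day 6 in CD79B (0.63, adjusted p = 5.7e-06), LYN (0.59), CD22 (0.55) and PLCG2 (-0.63, adjusted p = 1.7e-07), beside 25.3%. On day 4 only PLCG2 differed (-0.41), beside 17%. SU-DHL6 changed less than WSU-DLCL2 on day 4 in 6 members beside 18.9%: BLNK (-0.84), SYK (-0.79), BTK (-0.77), CD79A (-0.62), INPP5D (-0.59) and CD79B (-0.51). By day 6 SYK (-0.47) and BLNK (-0.41) remained lower in SU-DHL6 and CD22 was higher (0.68), beside 28.3%. The CD22 difference of Karpas422 on day 6 was 0.11 when all probe sets of the gene were averaged and 0.41 (adjusted p = 0.087) with the beta-actin ratio in the model.

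The members were then compared by how their group means moved together. After each line's own mean was subtracted, the 36 group means of SYK and INPP5D had a Pearson correlation of 0.939, SYK and BLNK 0.895, SYK and BTK 0.845, BLNK and INPP5D 0.844 and SYK and CD79B 0.819. LYN had a negative correlation with each of the other 8 genes, from -0.036 to -0.526, the latter with SYK. CD79A had values from -0.036 to 0.402. The lines differed in both: over the 9 group means of a line, LYN was positive with all 8 in Pfeiffer (0.164 to 0.909), with CD79A in Karpas422 (0.501) and with CD22 in WSU-DLCL2 (0.237). CD79A was at 0.658 to 0.870 with the 7 members other than LYN in WSU-DLCL2, and at -0.211 to -0.671 with them in Karpas422. SYK and BLNK had 0.875, 0.861 and 0.952 in the Y641 lines and 0.265 in Pfeiffer. The Pfeiffer group means include LCC day 6 array B, which stood apart and where LYN read 10.41 beside 11.16 and 11.09. Correlations without that array were not computed, so the contrast of Pfeiffer with the Y641 lines may rest on it. These points share doses, days and arrays, so the values are a description. Outside the 9 genes, the closest pattern among 19215 genes was that of ZFYVE26 for SYK (0.957), FGD2 for BLNK (0.951), CUL7 for CD22 (0.950), EXT1 for INPP5D (0.935), IVD for BTK (0.915), MSL2 for LYN (0.890), MCRIP1 for CD79B (0.874), HERC2 for PLCG2 (0.853) and MARCKSL1 for CD79A (0.729). The hundredth closest of these genes was still at 0.865 for SYK and 0.87 for BLNK. That is above SYK with BTK or CD79B and above BLNK with INPP5D, but below SYK with INPP5D or BLNK. Correlations of this size are therefore not particular to the 9 genes.

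**Figure D4:**
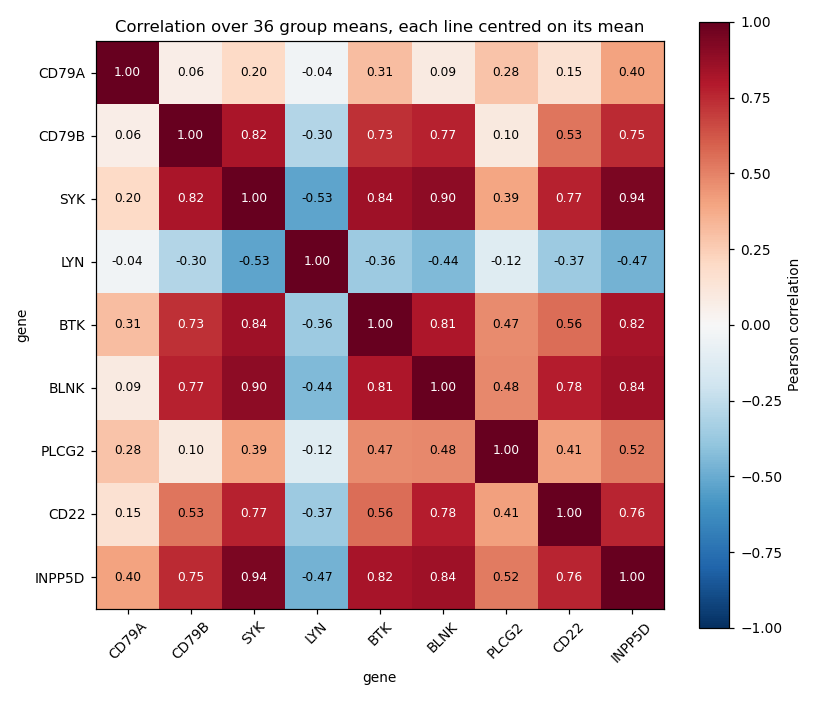
Pearson correlation of the 36 line-centred group means (line by dose by day) between each pair of the 9 genes, shown as colour with the value in each cell. SYK, BLNK, BTK and INPP5D have values of 0.807 or above with each other in this pooled matrix and the LYN values are below 0, which does not hold in Pfeiffer alone (BTK and BLNK 0.115, LYN positive with all 8). The Pfeiffer values include LCC day 6 array B, which stood apart.

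Other lists of the pathway were counted at 10xLCC on day 6, where the shares of all genes risen and fallen were, for WSU-DLCL2, 17% and 19.2%, for SU-DHL6 19.8% and 26.7%, and for Karpas422 18.4% and 19.2%. No list was tested as a set. Of the 24 measured genes downstream of the receptor, WSU-DLCL2 had 11 risen and 9 fallen, SU-DHL6 14 and 5, and Karpas422 11 and 3, with median changes of 0.10, 0.60 and 0.24, and 0 rose and 1 fell in Pfeiffer. The gene that fell there is PRKCB (-0.65), the kinase activated by the product of PLCG2, which rose by 3.38, 1.23 and 2.44 in the Y641 lines. ITPR1, the calcium channel opened by the other product, rose by 1.22, 1.85 and 1.51, and its relative ITPR2 by 1.68, 1.12 and 0.69. RASGRP3, an activator of RAS, rose by 0.69, 0.78 and 1.64. Of 19 other inhibitors, WSU-DLCL2 had 8 risen and 2 fallen, SU-DHL6 6 and 3, and Karpas422 5 and 2. CD72, a surface inhibitor, rose by 1.17, 0.33 and 2.57 and CBLB, a ubiquitin ligase, by 0.59, 1.18 and 1.14. PTPN22, a phosphatase of Src family kinases, fell by 0.50, 1.07 and 0.31.

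Of 13 relatives of LYN, BTK and SYK, WSU-DLCL2 had 4 risen and 1 fallen, SU-DHL6 6 and 1, and Karpas422 2 and 1. FYN, a Src family kinase better known from T cells, rose by 3.61 and 2.01 in WSU-DLCL2 and SU-DHL6 and gave -0.15 in Karpas422, which is not called. BLK, the B cell member of the Src family, rose in all 3, by 0.56, 0.89 and 0.27. Of 11 immunoglobulin and surrogate light chain genes, WSU-DLCL2 had 3 risen and 0 fallen, SU-DHL6 3 and 3, and Karpas422 2 and 3, which for SU-DHL6 and Karpas422 is near the shares of all genes. Of 13 regulators of B cell transcription, WSU-DLCL2 had 7 risen and 1 fallen, SU-DHL6 8 and 0, and Karpas422 8 and 1. BACH2 rose by 2.32, 1.75 and 3.67, FOXO1 by 0.27, 0.85 and 1.44, ETS1 by 0.58, 0.59 and 0.60 and POU2AF1, a coactivator of octamer factors, by 0.29, 0.61 and 0.41. The 14 early response genes that receptor signalling induces were mixed, with 3 risen and 2 fallen for WSU-DLCL2, 3 and 7 for SU-DHL6, and 3 and 6 for Karpas422. Among them IER2 rose by 1.24 in SU-DHL6 and fell by 0.69 in Karpas422. In Pfeiffer 0 genes of these 4 lists and 0 of the inhibitors were called.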

How the data were processed

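Total RNA of 27 samples per line, in 4 lines, was labelled with biotin and hybridised to 1-colour arrays, per the labels' protocols. The authors deposited 1 linear intensity per probe set and array (5.79 to 31846), processed with GCRMA per the submitters' processing notes. No source used here gives the version. GCRMA corrects background and quantile-normalizes, so a shift shared by most genes would be removed. The number of arrays limits the precision.

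Intensities were taken to log2 with no pseudocount (R 4.3.3, limma 3.58.1, Python 3.11.15, pandas 2.3.3, matplotlib 3.10.9). Of 54675 probe sets, 41097 had 1 gene symbol, 1801 several and 11777 none. Symbols came from the platform annotation, which can be old. The probe set of highest average intensity stood for its gene. Genes at log2 4 or more on at least 3 of the 27 arrays of a line were tested (18842 to 18935). Each line had 1 limma model over its 9 groups, and differences between lines came from 1 model over all 36 groups (19224 genes), both with Benjamini-Hochberg adjustment. Tested on simulated data, the fit called 94 to 100 of 100 genes changed by 1 log2 unit and 31 to 64 of 100 changed by 0.5. The genes named were the 9 members; from each pathway list up to 4 genes called the same way in all 3 Y641 lines with the largest mean change and, where fewer than 2 such genes existed, also the 2 with the smallest adjusted p; the gene closest in pattern to each member; and EZH2. Members and lists were chosen with earlier results of these data known. Alternatives tried were other filters, a pseudocount of 16, the mean of probe sets, centring on bright genes, the beta-actin covariate, a replicate block, the 2 groups alone and single arrays left out.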

Additional observations from a re-analysis of the deposited data

Results flagged for a closer look

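The change at 10xLCC against DMSO differed between lines in 24 of 54 tests of the difference itself (limma, 1 model over all 4 lines, log2 scale). In the same comparisons 15.3% to 28.3% of all genes tested were called. The cause of these differences was not tested.

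Pfeiffer minus the mean of the 3 Y641 lines was called on day 4 for CD79B (-0.34 ± 0.11 SE, adjusted p = 0.017), SYK (-0.73), BLNK (-0.91), PLCG2 (-0.30) and INPP5D (-0.48). On day 6 it was called for CD79B (-0.35), SYK (-0.99), BLNK (-0.83), CD22 (-0.88 ± 0.16, adjusted p = 1.1e-05) and INPP5D (-0.65). The day 4 calls of CD79B, PLCG2 and INPP5D and the day 6 call of CD79B ended when all arrays of some single letter were left out (CD79B day 4 -0.27 without A, PLCG2 -0.26 to -0.32, INPP5D -0.36 without B, CD79B day 6 -0.28 without A).

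Karpas422 minus the mean of WSU-DLCL2 and SU-DHL6 was called on day 4 for PLCG2 (-0.41, and -0.35 without a call when letter A was left out). On day 6 it was called for CD79B (0.63), LYN (0.59), PLCG2 (-0.63) and CD22 (0.55). The CD22 call ended without letter B or C.

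SU-DHL6 minus WSU-DLCL2 was called on day 4 for CD79A (-0.62), CD79B (-0.51), SYK (-0.79), BTK (-0.77), BLNK (-0.84) and INPP5D (-0.59), and on day 6 for SYK (-0.47), BLNK (-0.41) and CD22 (0.68). Calls that ended without some letter were CD79A (-0.67 without A and -0.37 without C), CD79B and INPP5D on day 4, and SYK, BLNK and CD22 on day 6.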

How the results depend on the processing

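Of the 72 changes at 10xLCC against DMSO on days 4 and 6, 72 kept their call without the filter on dim genes and 71 each with the stricter filter, the pseudocount of 16 and limma's trend and robust options. The labels do not say whether the replicate letters pair the samples. No line and day had all 3 correlations of same-letter deviations, DMSO against 10xLCC, over 0.1. Some were higher, as in WSU-DLCL2 on day 4 (0.452, 0.0146 and 0.256 for A, B and C). With 3 arrays a group this check cannot exclude pairing. With the letter as a replicate block 2 calls were lost, the fall of CD79A in SU-DHL6 on day 4 (-0.34, adjusted p = 0.052) and that of PLCG2 in Karpas422 on day 6 (-0.19, adjusted p = 0.055), so the block gave 0 fallen in each in place of 1. Of all genes 9.25% and 19.4% fell in those fits. With a single array left out, 415 of 468 values kept both call and sign, and 13 changed sign with no call in either fit. In that setting 34 calls were lost and 6 gained. Averaging all probe sets of a gene turned CD79B in SU-DHL6 to -0.24 on day 6 (adjusted p = 0.019) and -0.080 on day 4, CD79B in Pfeiffer against the Y641 lines on day 4 to 0.077, and PLCG2 in SU-DHL6 against WSU-DLCL2 on day 4 to -0.62. It gave 1 risen in SU-DHL6 on day 4 in place of 2, 3 risen in Karpas422 on day 4 in place of 5 and 1 fallen in SU-DHL6 on day 6 in place of 0. Beside these counts, 10%, 10.4% and 28.4% of all genes were called in the same direction. Centring on bright genes turned PLCG2 in Karpas422 on day 6 to 0.033. It gave 5 risen and 0 fallen in SU-DHL6 on day 4, 0 fallen in Karpas422 on both days and 1 fallen in Pfeiffer on day 4. With that centring 17% of all genes rose and 7.68% fell in SU-DHL6 on day 4. The fallen share was 8.54% and 12.5% in Karpas422 on days 4 and 6, and 1.33% in Pfeiffer on day 4. The beta-actin covariate gave 2 risen in SU-DHL6 on day 6 in place of 6 and 0 fallen there on day 4, beside 5.95% and 8.79% of all genes. Fitting the 2 groups alone gave 3 risen and 0 fallen in Karpas422 on day 4, beside 7.66% and 9.4% of all genes. It gave 0 fallen in SU-DHL6 on day 4 and in Karpas422 on day 6, beside 8.95% and 19.8%. With single arrays left out, risen members in SU-DHL6 on day 4 ranged from 1 to 3, and fallen members from 0 to 1 in SU-DHL6 on day 4, in Karpas422 on both days and in Pfeiffer on day 4, where the 1 came without LCC day 6 B. In Karpas422 on day 6, 0 fell without each of the 6 arrays compared. Without the 3 Karpas422 LCC day 6 arrays, chosen after seeing the data like the other arrays that stand apart and the letters left out, all 18 values kept their call. The cause of the changes was not tested. The other CD79B probe sets lie near the median signal of an array.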

Other observations

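EZH2, the target of EPZ6438, was itself slightly lower at 10xLCC on day 6 in the Y641 lines. It fell by 0.30 in WSU-DLCL2 (adjusted p = 0.023), 0.26 in SU-DHL6 (adjusted p = 0.026) and 0.51 in Karpas422 (adjusted p = 2.5e-06), and gave -0.13 in Pfeiffer (adjusted p = 1, limma). DUSP2, a phosphatase gene induced early by receptor signalling, fell by 0.60 in WSU-DLCL2 and fell by 1.47 in Karpas422, and it gave 0.07 in SU-DHL6 and 0.55 in Pfeiffer, neither called. IGLC1, an immunoglobulin light chain gene, rose by 2.88 in Karpas422 and by 0.33 in SU-DHL6 and gave -0.03 in WSU-DLCL2. VPREB3, which resembles a surrogate light chain, rose by 0.72 in WSU-DLCL2 and fell by 1.31 in Karpas422. LCK, a Src family kinase, rose by 0.56 in WSU-DLCL2, fell by 0.96 in SU-DHL6 and gave 0.05 in Karpas422.

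On day 4 of the 14 early response genes WSU-DLCL2 had 2 risen and 10 fallen (all genes 18.9% and 14.7%), SU-DHL6 4 and 0 (10.3% and 9.64%), and Karpas422 1 and 8 (10.8% and 15.2%). The difference between these counts was not tested.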
